A study of Mus musculus with 45 samples.

Results

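YEJG-FP, a PyMT+ mouse mammary tumour cell line grown from a fat-pad tumour, was compared with YEJG, the parental line from the primary mammary tumour. The members were chosen by the cell line label alone, which gave 6 of the 45 libraries of the series, 3 of each line. Both lines carry the polyoma middle T oncogene, which in MMTV-PyMT mice is driven by a promoter active in mammary epithelium, and neither carries any other stated allele or treatment. Cells of all lines had been plated a day before lysis and were near confluence, so the libraries hold RNA of cultured cells and not of tumours. The 3 libraries of a line were technical repeats of 1 line, and every p-value below measures the spread between such repeats and not between tumours or mice. Library names carry 1 of 2 prefixes, taken here as a first and a second library run. What step the prefix marks is not stated. Each line had 2 libraries in the first run and 1 in the second (YEJG replicate 2 and YEJG-FP replicate 1), and library run was kept as a covariate.

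Reads counted on genes numbered 12273818 in the shallowest and 13950715 in the deepest of the 6 libraries. Libraries of the same line correlated across genes with r between 0.965 and 0.992, and libraries of different lines with r between 0.937 and 0.967. A normalised read count is the raw count scaled by the TMM factor of edgeR to a library of 14123739 reads. Mitochondrial genes took 0.498 to 0.894% of the reads in YEJG and 0.869 to 0.949% in YEJG-FP.

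MMTV-PyMT tumours are luminal mammary carcinomas. Their cells are held together by tight junctions, adherens junctions and desmosomes, and are braced inside by keratins. When epithelial cells lose part of that identity, repressors of the ZEB, SNAI and TWIST families switch junction genes off and mesenchymal genes such as vimentin come on, often to a partial degree. Basement membrane, built from laminins and type IV collagen, underlies the epithelium, and integrins tie the cells to it.

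Both lines expressed the markers listed for luminal epithelium, and also the basal lineage genes Krt14 and Itgb4, whose values are given below. The 8 luminal markers summed to between 86800 and 101000 normalised read counts in the YEJG libraries and between 55900 and 65900 in the YEJG-FP libraries. All 8 were lower in YEJG-FP. Leukocyte and adipocyte markers were near absent in both lines, and the 10 endothelial markers summed to 47.2 to 64.2 in YEJG and 84.5 to 85 in YEJG-FP, almost all of it Egfl7, with Kdr, Emcn and Cldn5 at 0. The 15 leukocyte markers summed to at most 63.1 normalised read counts in any library, with Cd3e, Adgre1, Itgam and Tyrobp at 0, and the 10 adipocyte markers summed to at most 4.73. Fibroblast markers moved with the line, though not all of them. Their sum over 10 genes was 63.1 to 89.1 in YEJG and 189 to 217 in YEJG-FP, with Lum, Thy1 and Fap at 0 in all 6 libraries, and most of the rise came from Pdgfrb, the PDGF receptor beta. Pdgfrb had 0, 1.15 and 1.05 normalised read counts in YEJG and 79, 90.6 and 84.5 in YEJG-FP. Of the 4 fibroblast markers tested, 3 were higher. Col6a3, with means of 49 in YEJG and 32 in YEJG-FP, was lower and did not pass. The 9 lung epithelium markers summed to 234 to 400 in YEJG and 150 to 152 in YEJG-FP, mostly Foxj1. The 8 skeletal muscle markers summed to 206 to 244 in YEJG and 122 to 134 in YEJG-FP. The part of fibroblasts in the results below was not tested, and fewer cells of a kind cannot be told apart from less RNA per cell.

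Of 12618 genes tested, 4041 (32%) had an adjusted p under 0.05, of which 1981 (15.7%) were higher and 2060 (16.3%) lower in YEJG-FP. Scaling by library totals alone gave 2317 higher and 1740 lower genes. Most of these differences were small, with a median size of 0.49 on the log2 scale, a 1.41-fold difference. A difference of at least 2-fold was found for 511 genes that were higher (4.05%) and 416 that were lower (3.3%), and for 119 and 59 genes it reached 8-fold. The median log2 fold change over all genes tested was 0.0038. All 927 of the 2-fold genes kept their direction within each run, which describes genes chosen on the same libraries. The number of genes past the threshold fell to 2424 without YEJG-FP replicate 1 and to 2449 without YEJG replicate 2, the second-run libraries, while the number past 2-fold became 862 and 879.

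**Figure D1:**
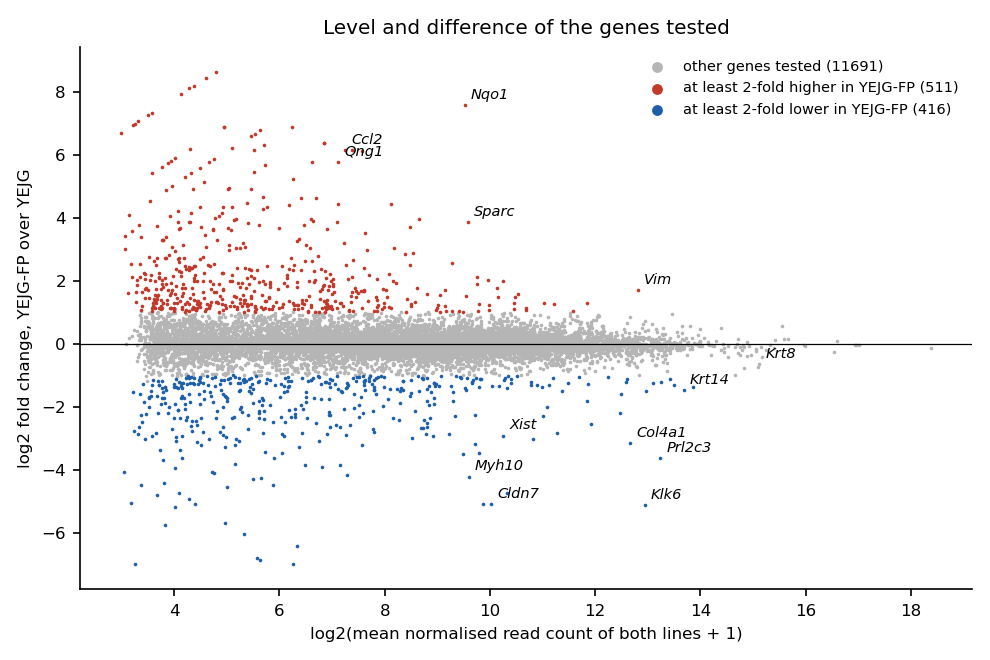
Each point is 1 of the 12618 genes tested, with the log2 of its mean normalised read count over both lines plus 1 on the x axis and its log2 fold change, YEJG-FP over YEJG, on the y axis. Red and blue points are the 511 and 416 genes with an adjusted p under 0.05 and at least a 2-fold difference. Klk6, Col4a1 and Prl2c3 were among the abundant genes with large falls.

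The gene with the largest rise was Nqo1, a quinone reductase and a classical target of the transcription factor NRF2. It had 4.73, 5.74 and 11.5 normalised read counts in the 3 YEJG libraries and 1372, 1378 and 1627 in the 3 YEJG-FP libraries. The groups were far apart, at 7.33 ± 3.67 (SD, n = 3) against 1459 ± 146 (SD, n = 3), a 192-fold difference (log2 fold change 7.58, standard error 0.17, adjusted p = 8.37e-10, edgeR's quasi-likelihood test). Nqo1 was equally near absent in the parental line YEJH, at 5.69, and the 5 fat-pad lines derived from YEJH held 383 to 672.

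Eya4, a transcriptional coactivator of the EYA family, was also among the largest rises. It had 3.55, 2.29 and 4.19 normalised read counts in YEJG and 211, 189 and 177 in YEJG-FP. No YEJG library was near a YEJG-FP library, and the log2 fold change was 5.78 (standard error 0.23, adjusted p = 3.21e-08). Eya4 stayed between 3.12 and 7.92 in the YEJH fat-pad lines. In the lung lines of YEJG it was at 89.3 (YEJG-M1) and 150 (YEJG-M2).

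Secreted factors came next. Angpt1, the ligand of the endothelial receptor TIE2, went from 2.37, 0 and 5.24 normalised read counts in YEJG to 252, 217 and 209 in YEJG-FP. Ccl2, which attracts monocytes, went from 10.6, 0 and 2.1 to 318, 327 and 250. The fitted differences were 81.9-fold for Angpt1 (adjusted p = 1.58e-07) and 70.2-fold for Ccl2 (adjusted p = 6.07e-07), and in both genes the highest YEJG library lay well under the lowest YEJG-FP library.

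Enzymes and channels made up most of the other large rises. Car12, a membrane carbonic anhydrase, had 3.55, 3.44 and 6.29 normalised read counts in YEJG and 324, 320 and 333 in YEJG-FP. Qng1, which releases queuine from queuosine nucleotides, had 3.55, 8.03 and 3.14 in YEJG and 273, 269 and 270 in YEJG-FP. Decr1, a mitochondrial reductase for the oxidation of unsaturated fatty acids, had 1.18, 4.59 and 5.24 in YEJG and 166, 142 and 132 in YEJG-FP. The 3 YEJG-FP libraries of Qng1 were almost identical, and no other line of the series came near them, since Qng1 ranged from 1.31 in YEJH-M4 to 9.3 in YEJH-FP1. Kcnj2, an inward-rectifier potassium channel, was 1.87 ± 0.64 in YEJG and 102 ± 3.25 in YEJG-FP (SD, n = 3). Ccnb1ip1, a ubiquitin ligase known from meiotic crossing over, was 5.21 ± 2.83 and 374 ± 31.8.

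Clec2f and Tmem37, also among the largest rises, had 3 reads each over the YEJG libraries, so their ratio carries a wide counting interval. Clec2f, a C-type lectin, had 0, 0 and 3.14 normalised read counts in YEJG and 133, 157 and 152 in YEJG-FP, a ratio of 131 (95% counting interval 44.6 to 638). Tmem37, a transmembrane protein, had 1.18, 2.29 and 0 in YEJG and 110, 83.6 and 108 in YEJG-FP, a ratio of 89.4 (95% counting interval 30.3 to 436). Adjusted p of the 11 rises described here lay between 8.37e-10 (Nqo1) and 7.68e-07 (Tmem37).

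**Figure D2:**
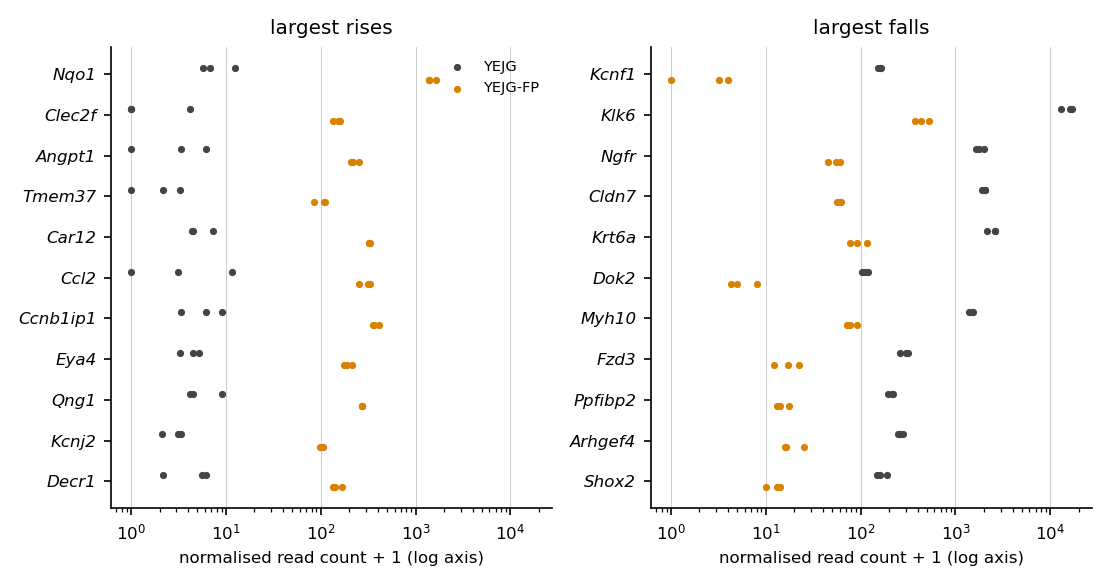
Normalised read counts plus 1 on a log axis for 11 of the 12 genes with the largest rises (left) and 11 of the 12 with the largest falls (right), ordered by size. Dark points are the 3 YEJG libraries and orange points the 3 YEJG-FP libraries, which do not overlap for any of the 22 genes, as the naming rule required.

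Among the largest falls by fold, the most abundant gene in YEJG was Klk6, a secreted serine protease of the kallikrein family. It had 16906, 15990 and 13035 normalised read counts in YEJG and 520, 436 and 375 in YEJG-FP, a 34.6-fold fall (log2 fold change -5.11, standard error 0.12, adjusted p = 8.42e-10). The YEJH fat-pad lines held 4835 to 7304, beside 11080 in YEJH. The lung lines of YEJG were as low as YEJG-FP, at 517 (YEJG-M1) and 340 (YEJG-M2).

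Kcnf1, a modulatory potassium channel subunit, had 160, 153 and 163 normalised read counts in YEJG and 3.04, 0 and 2.22 in YEJG-FP, an 84.8-fold fall. It stood at 90.2 in YEJH and between 23 and 43 in its fat-pad lines. In the lung lines of YEJG it was also low, at 0 (YEJG-M1) and 6.68 (YEJG-M2).

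Receptors and signalling adaptors fell as well. Ngfr, the p75 neurotrophin receptor, had 2022, 1779 and 1634 normalised read counts in YEJG and 59.7, 54.4 and 44.5 in YEJG-FP, a 34-fold fall. Fzd3, a Wnt receptor, had 258, 318 and 299 in YEJG and 21.3, 16.1 and 11.1 in YEJG-FP. Dok2, an adaptor under receptor tyrosine kinases, had 103, 119 and 111 against 7.09, 4.03 and 3.34. None of these groups overlapped, and the standard errors of the log2 fold changes were 0.12, 0.17 and 0.24.

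Cytoskeletal and developmental genes completed the largest falls. Myh10, the heavy chain of non-muscle myosin IIB, fell 18.5-fold, from 1466 ± 65.8 to 79.1 ± 9.76 normalised read counts (SD, n = 3). Myh9, the heavy chain of non-muscle myosin IIA and 1 of the 5 largest falls in reads among protein-coding genes, fell 1.96-fold from 35175, 35802 and 31149 to 17809, 17026 and 17227. Ppfibp2, a liprin scaffold protein, Arhgef4, an exchange factor for small GTPases, and Shox2, a homeobox transcription factor, fell 14.9-fold, 14.4-fold and 14.2-fold. Krt6a, a keratin induced in stressed epithelium, fell 26.3-fold from 2172, 2634 and 2610 to 91.1, 76.5 and 116. Among the 5 largest falls in reads was also Prl2c3, of the prolactin family, with 19109, 15394 and 19197 in YEJG and 1255, 1585 and 1505 in YEJG-FP (12.4-fold). Reads of Prl2c3 may be shared with near-identical family members, so its level is uncertain. Both highly expressed membrane genes named by the change in reads fell less, Ahnak by 0.24 and Emp1 by 0.74 on the log2 scale, and Ahnak lost its call without YEJG-FP replicate 3 (adjusted p = 0.0784), replicate 2 (0.0581) or replicate 1 (0.0514).

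Genes of epithelial junctions were lower as a group. Of 30 tested of the 32 listed, 25 fell (83.3%, against 16.3% of all genes tested) and 3 rose, with a median log2 fold change of -0.40. The fall was small in most members, since 6 of the 25 reached 2-fold. The number that fell was between 18 and 25 over the alternatives run, and was 18 without YEJG-FP replicate 2. The number that rose was 1 without any 1 of YEJG-FP replicates 1 to 3 or without YEJG replicate 2.

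The exception in size was Cldn7, a claudin of tight junctions and of the basolateral membrane. It had 2068, 2067 and 1899 normalised read counts in YEJG and 61.7, 59.4 and 55.6 in YEJG-FP (log2 fold change -5.09, standard error 0.09, adjusted p = 1.07e-10), a 34-fold fall. No library of either line was near the other group. The YEJH fat-pad lines held 1333 to 1869, beside 1656 in YEJH, and the difference of the differences was -5.05 (adjusted p = 2.4e-15).

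Ocln, the tight junction protein occludin, went from 952, 999 and 854 normalised read counts to 325, 314 and 328, a 2.9-fold fall. Tjp3, a scaffold of tight junctions, was low throughout and fell from 15.8 ± 7.19 to 2.06 ± 1.73 (SD, n = 3). Epcam, an epithelial adhesion molecule that binds claudin-7, had 9531, 10335 and 9234 in YEJG and 5038, 4868 and 4671 in YEJG-FP. Cdh1, which encodes E-cadherin, fell by 0.35 on the log2 scale (standard error 0.07, adjusted p = 0.00227), from 4638 ± 340 to 3629 ± 168 (SD, n = 3). Epcam and Cdh1 were chosen after their values were seen. The members that rose were Gjb2, which encodes connexin 26, from 3.42 ± 1.32 to 22.8 ± 3.72, and, by less than 1.2-fold, Tjp1 and Cgn.

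All 9 tested keratins of the 17 listed were lower in YEJG-FP (100%, against 16.3% of all genes tested), with a median log2 fold change of -0.81, and 4 of them by at least 2-fold. Krt14, the basal keratin, fell 2.76-fold from 18780, 20352 and 18753 normalised read counts to 6722, 6416 and 7844. Krt16 fell from 658 ± 143 to 262 ± 49 and Krt79 from 25.2 ± 5.82 to 3.77 ± 2.01 (SD, n = 3). Krt8, the luminal keratin with the most reads, had 49298, 38599 and 41330 in YEJG and 22994, 28947 and 32004 in YEJG-FP, a smaller difference of -0.63 on the log2 scale, and the groups did not overlap.

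Mesenchymal genes were higher as a group but mostly at low or moderate levels. Of 17 tested of the 28 listed, 12 rose (70.6%, against 15.7% of all genes tested), 9 of them by at least 2-fold, and 2 fell, with a median log2 fold change of 1.10. Vim, which encodes the intermediate filament vimentin, had 3853, 3588 and 2657 normalised read counts in YEJG and 11000, 11265 and 10809 in YEJG-FP, a 3.28-fold rise and the largest rise in reads among protein-coding genes past the threshold. The lung-derived YEJG lines held several times more, 58780 in YEJG-M1 and 40690 in YEJG-M2.

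Sparc, a secreted matrix-binding protein, rose 14.5-fold from 108, 94.1 and 94.3 normalised read counts to 1493, 1356 and 1454. Zeb1, a repressor of epithelial genes, rose 9.23-fold from 33.1, 27.5 and 26.2 to 280, 278 and 244. Col1a2, a chain of type I collagen, rested on 1 read in YEJG and stood at 24.9 ± 3.02 normalised read counts in YEJG-FP (ratio 66.8, 95% counting interval 11.6 to 2674). The fibroblast marker sum moved with these genes, as given above, and Col1a2 is 1 of those markers. Of repressors chosen after their values were seen, Zeb2 rose from 54.1 ± 4.06 to 205 ± 12.3 and Snai1 from 63.8 ± 10.4 to 165 ± 11.2 (SD, n = 3). The list's falls were Tgfbi, a secreted matrix protein, from 54.7 ± 7.17 to 6.87 ± 2.32, and Tnc, which encodes tenascin C, by 1.36 on the log2 scale, and Tnc was chosen after its values were seen.

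**Figure D3:**
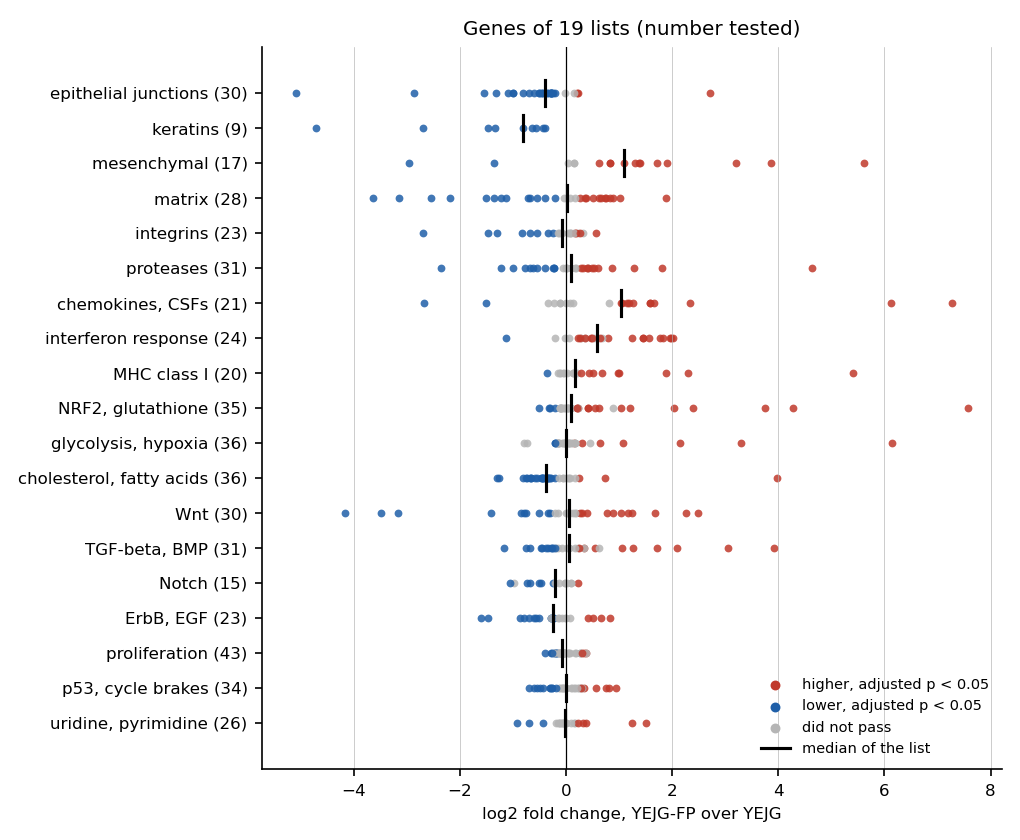
Log2 fold changes, YEJG-FP over YEJG, of the tested genes of 19 lists, with the number tested in brackets. Red and blue points passed an adjusted p of 0.05 and grey points did not, and the black bar is the median of the list, which lies at -0.40 for epithelial junctions, -0.81 for keratins and 1.10 for mesenchymal genes.

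Promoter sequence is shown for Cldn7, the junction gene with the largest fall, and for its partner Epcam, since factors of the ZEB and SNAI families are known to bind the E-box CACCTG. Windows of 300 bases, from 250 before to 50 after an annotated start (RefSeq, GRCm38.p6), were searched on both strands. Capitals mark CACCTG or its reverse complement CAGGTG. The Cldn7 window is the second annotated start, chr11:69965171-69965470 on the plus strand, and the Epcam window is chr17:87635729-87636028 on the plus strand.
Cldn7: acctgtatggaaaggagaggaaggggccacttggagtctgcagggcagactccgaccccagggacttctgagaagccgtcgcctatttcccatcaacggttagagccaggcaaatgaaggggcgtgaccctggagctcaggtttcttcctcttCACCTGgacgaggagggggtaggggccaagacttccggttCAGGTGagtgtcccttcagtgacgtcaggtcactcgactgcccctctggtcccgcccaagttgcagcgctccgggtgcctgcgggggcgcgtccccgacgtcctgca
Epcam: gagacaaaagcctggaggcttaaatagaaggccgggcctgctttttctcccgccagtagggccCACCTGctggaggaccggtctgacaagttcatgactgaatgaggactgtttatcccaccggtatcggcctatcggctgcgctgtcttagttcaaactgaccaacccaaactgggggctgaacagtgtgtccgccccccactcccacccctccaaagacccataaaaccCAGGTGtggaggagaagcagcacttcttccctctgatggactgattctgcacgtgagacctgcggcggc

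Each window holds 2 matches, at positions 154 to 159 and 194 to 199 for Cldn7 and at 64 to 69 and 232 to 237 for Epcam, counted from the window's 5′ end. The window of the first annotated Cldn7 start and that of Ovol2 held 0. Of 23 windows found for the listed junction genes, 13 (56.5%) held at least 1 match, against 20.2% of all 32851 windows and 17.5% of the windows of genes tested. A match is a string of letters and not a bound site, and windows of junction genes also held the GC box GGGCGG more often (73.9%, against 35.7% of all windows and 64.3% of those of genes tested).

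Basement membrane and matrix genes split in both directions, with 12 of 28 tested higher (42.9%, against 15.7% of all genes tested) and 13 lower (46.4%, against 16.3%) of the 42 listed, and a median log2 fold change of 0.0157. The large changes were falls, 8 of which reached 2-fold against 2 of the rises. Col4a1, the alpha 1 chain of type IV collagen, had 11893, 12373 and 10628 normalised read counts in YEJG and 1501, 1166 and 1272 in YEJG-FP, an 8.89-fold fall. Col4a2, the partner chain, had 6827, 7064 and 5960 against 1257, 1051 and 1103, a 5.83-fold fall. The libraries of the lines lay far apart for both chains.

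Col18a1, the basement membrane collagen that yields endostatin, fell 4.53-fold from 9583, 10028 and 8342 normalised read counts to 2210, 2066 and 1895. Col17a1, the collagen of hemidesmosomes, fell 12.4-fold from 109 ± 18.1 to 8.65 ± 1.28 (SD, n = 3). Laminin chains of the epithelial anchorage fell by less, Lama3 from 3966 ± 377 to 2429 ± 155 and Lamb3 from 3316 ± 173 to 2069 ± 120. These laminin chains and Lox were chosen after their values were seen. Lox, which crosslinks collagen, rose from 21.9 ± 4.87 to 81.9 ± 3.6 and was the largest rise of the list. Fn1, which encodes fibronectin, rose from 7430, 5892 and 4784 to 9690, 9451 and 8662 (log2 fold change 0.62, standard error 0.13, adjusted p = 0.00381), and lost its call without YEJG-FP replicate 1 (adjusted p = 0.0622) or YEJG replicate 2 (0.0616).

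Col4a1 and Col4a2 lie on opposite strands with gene bodies that extend away from each other, and their windows are shown since both genes fell. Their annotated starts lie 21 bp apart, placed such that the first bases of the transcripts overlap, and the windows share 78 bases. Capitals mark CCAAT and GGGCGG on either strand. The Col4a1 window is chr8:11312777-11313076 on the minus strand and the Col4a2 window chr8:11312555-11312854 on the plus strand (GRCm38.p6, RefSeq).
Col4a1: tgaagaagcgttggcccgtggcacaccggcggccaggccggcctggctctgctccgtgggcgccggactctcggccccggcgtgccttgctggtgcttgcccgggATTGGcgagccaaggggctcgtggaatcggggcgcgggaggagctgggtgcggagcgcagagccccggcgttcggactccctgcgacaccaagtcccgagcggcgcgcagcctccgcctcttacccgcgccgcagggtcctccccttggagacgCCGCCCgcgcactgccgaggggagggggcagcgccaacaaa
Col4a2: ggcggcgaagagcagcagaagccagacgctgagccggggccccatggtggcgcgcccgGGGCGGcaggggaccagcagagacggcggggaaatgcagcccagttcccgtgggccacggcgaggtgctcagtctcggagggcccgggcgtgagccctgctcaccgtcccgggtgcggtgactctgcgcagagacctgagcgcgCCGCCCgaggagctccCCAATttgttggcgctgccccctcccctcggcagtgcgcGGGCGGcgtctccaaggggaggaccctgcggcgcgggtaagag

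The Col4a1 window held 2 matches and the Col4a2 window 4. CCAAT occurred in 37.4% of all windows and GGGCGG in 35.7%, and in 38.1% and 64.3% of the windows of genes tested.

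More of the integrin genes fell than rose. Of 23 tested of the 30 listed, 8 fell (34.8%, against 16.3% of all genes tested) and 4 rose (17.4%, near the 15.7% of all genes). Itgb4, the integrin subunit of hemidesmosomes, fell 2.45-fold from 16820, 15866 and 16513 normalised read counts to 6640, 6430 and 7020. Itga8, a subunit that binds fibronectin and nephronectin, fell 6.46-fold from 345, 356 and 428 to 69.8, 51.4 and 53.4. Itga7, a laminin receptor subunit with few reads, fell from 30.8, 16.1 and 12.6 to 10.1, 5.04 and 5.56 (log2 fold change -1.48, adjusted p = 0.0322). Its call was lost without any 1 of the libraries other than YEJG replicate 3 (adjusted p = 0.0507 to 0.145), without library run (0.0565), with run 1 only (0.0504) and by DESeq2 (0.062). Itga2, a collagen receptor subunit, went from 696 ± 78 to 390 ± 31.5 (SD, n = 3). Itga5 (202 ± 13.7 and 236 ± 14.1, adjusted p = 0.104) and Itgb1 (15171 ± 914 and 14237 ± 295, adjusted p = 0.23), which form the fibronectin receptor, did not pass. Between 6 and 8 integrin genes fell and 2 to 5 rose over the alternatives run, with 2 rises without any 1 of the 3 YEJG-FP libraries or without YEJG replicate 2.

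Proteases of the matrix went both ways, with 11 of 31 tested higher and 11 lower (35.5% each, against 15.7% and 16.3% of all genes tested) of the 45 listed. Adamts5, which cuts aggrecan and versican, had 5.91, 6.88 and 6.29 normalised read counts in YEJG and 168, 153 and 165 in YEJG-FP, a 24.9-fold rise. Adamts1 rose 2.45-fold from 2290, 2153 and 1940 to 5582, 5172 and 4867, and Adamts9 rose 3.49-fold. Mmp9, a gelatinase, fell 5.1-fold from 71, 96.4 and 73.3 to 16.2, 16.1 and 14.5. Plau, which encodes urokinase and was chosen after its values were seen, fell 2.33-fold from 8605 ± 1137 to 3695 ± 360 (SD, n = 3).

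Chemokines and colony-stimulating factors were mostly higher where they changed. Of 21 tested of the 36 listed, 11 rose (52.4%) and 2 fell (9.52%), all by at least 2-fold, against 4.05% and 3.3% of all genes tested. Beside Ccl2 stood Ccl7, a neighbouring monocyte chemokine, which had 0 reads in all YEJG libraries and 25.3, 22.2 and 14.5 normalised read counts in YEJG-FP, at least 18.4-fold higher against a floor of 3 reads over the YEJG libraries. Ccl9 rose from 14.2, 16.1 and 15.7 to 71.9, 95.7 and 66.7.

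Of factors chosen after their values were seen, Csf1, the growth factor of macrophages, rose from 1501, 1342 and 1313 normalised read counts to 3651, 3192 and 3199. Cxcl5, which attracts neutrophils, rose from 751, 777 and 667 to 2658, 1956 and 2038. Csf3, the growth factor of neutrophils, moved the other way, from 622, 560 and 596 to 224, 200 and 200, a 2.84-fold fall. The other fall was Il1a, the cytokine interleukin 1 alpha, which dropped 6.36-fold from 789, 688 and 659 to 112, 121 and 101. The number of falls was 4 without YEJG replicate 3.

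Genes of the interferon response were higher at modest levels. Of 24 tested of the 43 listed, 16 rose (66.7%, against 15.7% of all genes tested), 9 of them by at least 2-fold, and 1 fell, with a median log2 fold change of 0.58. Parp14, a mono-ADP-ribosyltransferase, rose 4.06-fold from 31.9, 37.9 and 49.2 normalised read counts to 162, 169 and 157. Ifit1, which binds viral RNA, rose from 5.91, 8.03 and 10.5 to 32.4, 36.3 and 30, and Gbp2, a guanylate-binding protein, from 17.7, 21.8 and 28.3 to 80, 107 and 79. Means of Parp14, Ifit1 and Gbp2 were lower in YEJG than in any other line of the series. The next lowest lines held 110.5, 11 and 59. The fall was Bst2, which tethers virus particles, from 76.8 ± 9.45 to 34.8 ± 5.75 (SD, n = 3). The number that rose was 9 without YEJG-FP replicate 1 and 10 without YEJG replicate 2.

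The Ifit1 and Gbp2 windows are shown since they carry the interferon-stimulated response element, searched on both strands as GAAA, any 2 bases and again GAAA. Capitals mark its reverse complement. The Ifit1 window is chr19:34640639-34640938 and the Gbp2 window chr3:142620413-142620712, both on the plus strand (GRCm38.p6, RefSeq).
Ifit1: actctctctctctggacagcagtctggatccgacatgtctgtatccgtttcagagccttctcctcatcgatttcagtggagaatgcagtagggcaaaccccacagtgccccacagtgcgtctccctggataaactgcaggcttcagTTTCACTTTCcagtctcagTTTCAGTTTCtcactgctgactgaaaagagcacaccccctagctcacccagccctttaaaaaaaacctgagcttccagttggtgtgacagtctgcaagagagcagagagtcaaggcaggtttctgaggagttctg
Gbp2: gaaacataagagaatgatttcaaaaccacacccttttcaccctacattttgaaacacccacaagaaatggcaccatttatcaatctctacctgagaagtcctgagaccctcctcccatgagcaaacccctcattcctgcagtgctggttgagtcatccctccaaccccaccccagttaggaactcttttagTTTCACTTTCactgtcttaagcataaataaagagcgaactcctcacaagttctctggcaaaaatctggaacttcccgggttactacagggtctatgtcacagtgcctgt

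Ifit1 held 2 matches, at positions 147 to 156 and 166 to 175, and Gbp2 held 1, at 192 to 201. The window of Oasl1, a listed gene that also rose, held 0. Of 35 windows found for the listed interferon genes, 18 (51.4%) held a match, against 3.44% of all windows. Interferon genes are in part known by this element, so the share describes the list and not the change.

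Genes of antigen presentation by MHC class I were higher where they changed, with 1 exception. Of 20 tested of the 29 listed, 9 rose (45%, against 15.7% of all genes tested) and 1, Calr, fell. Tap2, a subunit of the peptide transporter, rose 4.92-fold from 53.2, 39 and 25.1 normalised read counts to 201, 195 and 176. Tap1, the other subunit, rose 3.71-fold from 11.8 ± 5.36 to 43.7 ± 8.29, and Psmb10, an immunoproteasome subunit, rose from 211 ± 13.9 to 420 ± 21.8 (SD, n = 3). Psmb8, another such subunit, rested on 1 read in YEJG and stood at 21.4 ± 4.11 in YEJG-FP. Means of Tap1, Tap2 and Psmb8 were lower in YEJG than in any other line of the series. For Tap1 the mean of YEJG-FP also lay under the 52.1 of the lowest line outside the pair. Psmb10 was not lowest in YEJG, since YEJH held 195. H2-Q4, a class I heavy chain gene, rose from 195 ± 45.5 to 311 ± 73.5 (adjusted p = 0.000144), and its reads may be shared with near-identical class I genes. The abundant class I genes H2-K1 (2017 ± 517 and 2244 ± 511, adjusted p = 0.0735) and B2m (2565 ± 150 and 2483 ± 33.9, adjusted p = 0.583) did not pass. Calr, H2-Q4, H2-K1 and B2m were chosen after their values were seen.

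NRF2 targets and glutathione enzymes were uneven. Of 35 tested of the 39 listed, 14 rose (40%, against 15.7% of all genes tested), 7 of them by at least 2-fold, and 4 fell by less than 2-fold, and the median log2 fold change was 0.0974. After Nqo1, the glutathione transferases Gstm1 and Gstt1 rose most. Gstm1 went from 2.37, 3.44 and 8.38 normalised read counts to 100, 88.6 and 100, and Gstt1 from 1.52 ± 0.734 to 21.9 ± 6.15 (SD, n = 3). Mgst1, a microsomal glutathione transferase, went from 13, 5.74 and 14.7 to 68.8, 56.4 and 54.5. Hmox1 (478 ± 18.3 and 512 ± 32.1, adjusted p = 0.366), a widely used NRF2 target chosen after its values were seen, did not pass, and Gclm rose 1.15-fold (adjusted p = 0.0402). The number of falls was 2 without YEJG-FP replicate 1 or YEJG replicate 2.

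Glycolysis genes did not move as a group. Of 36 tested of the 40 listed, 7 were higher (19.4%, against 15.7% of all genes tested) and 3 lower (8.33%, against 16.3%). The rises by at least 2-fold were hypoxia-linked genes. Beside Car12, Car9, the other membrane carbonic anhydrase, rose from 5.91, 9.18 and 3.14 normalised read counts to 26.3, 28.2 and 26.7. Egln3, a prolyl hydroxylase of HIF, rose 9.89-fold from 3.55, 4.59 and 6.29 to 50.6, 46.3 and 51.2, and Pfkfb4, a regulator of glycolytic flux, 2.12-fold from 102 ± 8.43 to 216 ± 15.1 (SD, n = 3). The number of falls was 0 without YEJG-FP replicate 1, YEJG-FP replicate 2 or YEJG replicate 2, it was 1 without YEJG-FP replicate 3, and 6 genes fell without YEJG replicate 3.

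Cholesterol and fatty acid synthesis genes were slightly lower as a group. Of 36 tested of the 37 listed, 25 fell (69.4%, against 16.3% of all genes tested) and 3 rose, with a median log2 fold change of -0.37, and 2 of the falls reached 2-fold. These were Fads2, a desaturase, from 244, 232 and 192 normalised read counts to 98.2, 82.6 and 91.2, and Tm7sf2, a sterol reductase, from 98.2, 83.7 and 89.1 to 36.4, 33.2 and 43.4. Fdps, which makes farnesyl diphosphate, fell by 0.81 on the log2 scale within runs, although its libraries overlapped between lines (704, 342 and 601 against 169, 378 and 404), and it lost its call without library run in the fit (adjusted p = 0.165).

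Srebf2, the master factor of sterol synthesis and chosen after its values were seen, fell from 1392 ± 137 normalised read counts to 950 ± 90.9 (SD, n = 3). Against the group, Scd1, the stearoyl-CoA desaturase, rose 15.7-fold from 69.8, 36.7 and 38.8 to 778, 755 and 731. It was at 341 in the parental line YEJH and between 890 and 1073 in the YEJH fat-pad lines.

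Wnt pathway genes went both ways. Of 30 tested of the 51 listed, 11 were higher (36.7%, against 15.7% of all genes tested) and 10 lower (33.3%, against 16.3%). Ligands were split: Wnt11 rose 5.6-fold from 7.1, 5.74 and 5.24 normalised read counts to 28.3, 34.2 and 40. Lgr6, an R-spondin receptor, fell 8.98-fold from 1593, 1452 and 1492 to 202, 151 and 152, in addition to the fall of Fzd3 given above. Nkd2, an inhibitor that binds Dishevelled, fell 11.2-fold from 1372, 1282 and 1286 to 114, 136 and 99. Axin2, a common transcriptional readout of the pathway and chosen after its values were seen, was low and rose from 21.5 ± 7.13 to 68.6 ± 4.82 (SD, n = 3). The number of rises was 7 without YEJG-FP replicate 1.

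The YEJH fat-pad lines did not show the fall of Lgr6. In the lung lines of YEJG, Lgr6 was at 567 (YEJG-M1) and 365 (YEJG-M2) normalised read counts. It stood at 1262 normalised read counts in YEJH and between 1665 and 1994 in its fat-pad lines, and the difference of the differences was -3.68 (adjusted p = 3.2e-14). Axin2 and Wnt11 differed likewise, by 2.23 (adjusted p = 3.6e-07) and 2.98 (adjusted p = 1.7e-06).

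TGF-beta and BMP genes were also divided. Of 31 tested of the 42 listed, 9 were higher (29%, against 15.7% of all genes tested) and 11 lower (35.5%, against 16.3%). The rises were larger, 6 of them reaching 2-fold against 1 of the falls. Tgfbr3, the co-receptor betaglycan, rose 15.1-fold from 3.55, 2.29 and 6.29 normalised read counts to 69.8, 61.4 and 61.2. Bmp4, a ligand, rose 8.3-fold from 8.28, 6.88 and 7.33 to 71.9, 69.5 and 47.8, and Nog, its secreted inhibitor, 4.24-fold from 23.7, 31 and 25.1 to 111, 111 and 118. Smad6, an intracellular inhibitor of BMP signalling, rose from 6.4 ± 3.01 to 21.2 ± 1 (SD, n = 3). The number of falls was 6 without YEJG-FP replicate 3 or replicate 2.

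ErbB and Notch genes leaned downward. Of 23 tested of the 26 listed ErbB and EGF family genes, 12 fell (52.2%, against 16.3% of all genes tested) and 4 rose (17.4%, near the 15.7% of all genes), with a median log2 fold change of -0.24. Epgn, the EGF receptor ligand epigen, fell from 368, 345 and 364 normalised read counts to 210, 169 and 217, and Spry4, a feedback inhibitor of receptor tyrosine kinases, from 42.2 ± 2.55 to 15.3 ± 3.64 (SD, n = 3). Egfr, the receptor of epigen and chosen after its values were seen, rose 1.59-fold from 867 ± 34.7 to 1377 ± 48.8. The ErbB list gave 8 falls and 1 rise without YEJG-FP replicate 2, and 1 rise without YEJG-FP replicate 1 or YEJG replicate 2.

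Of 15 tested Notch genes of the 23 listed, 6 fell (40%, against 16.3% of all genes tested) and 1 rose, Notch2, a call that was lost without YEJG-FP replicate 3, YEJG-FP replicate 1 or YEJG replicate 2, while 2 rose without YEJG replicate 1. Nrarp, a feedback inhibitor induced by Notch, fell from 299, 328 and 322 normalised read counts to 146, 143 and 168. The ligand genes Jag2 and Dll1 fell from 675 ± 76.9 to 407 ± 12.5 and from 605 ± 53.7 to 380 ± 12.3 (SD, n = 3).

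Proliferation genes differed little. Of 43 tested of the 44 listed, 3 rose (6.98%, against 15.7% of all genes tested) and 7 fell (16.3%, as among all genes). None changed by 2-fold, and the log2 fold changes ran from -0.40 to 0.38. Ccnd1, which encodes cyclin D1, fell from 34696, 37204 and 31208 normalised read counts to 27802, 25854 and 24716, a log2 fold change of -0.39. Cdk6, a partner of cyclin D1, rose from 2344 ± 97.9 to 2959 ± 79.1 (SD, n = 3), a call lost in the fit of all 45 libraries (adjusted p = 0.0609). The counts moved between 1 and 9 rises and between 2 and 10 falls with single libraries left out, with the most in both directions without YEJG replicate 3. Without YEJG-FP replicate 1 or YEJG replicate 2 there were 1 rise and 2 falls, and without YEJG-FP replicate 3 or replicate 2 there were 4 falls beside 1 and 2 rises.

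Of 34 tested p53 targets and cell cycle inhibitors of the 35 listed, 6 rose (17.6%, near the 15.7% of all genes tested) and 10 fell (29.4%, against 16.3%), none by 2-fold. The largest fall was Ccng2, cyclin G2, from 181 ± 15 to 112 ± 24.4 normalised read counts (SD, n = 3), and Sesn1, a stress-induced inhibitor of mTORC1, rose from 72.5 ± 4.24 to 127 ± 6.81. Without YEJG-FP replicate 3 or replicate 2 there were 4 rises and 6 falls. Of 27 tested stress and unfolded protein genes of the 28 listed, 2 rose (7.41%, against 15.7%) and 6 fell (22.2%, against 16.3%). Vldlr, a lipoprotein receptor, alone reached 2-fold, from 13.2 ± 7.01 to 53.4 ± 3.54.

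Luminal and basal lineage genes changed in both directions. Of 11 tested luminal genes of the 28 listed, 2 rose (18.2%, near the 15.7% of all genes tested) and 3 fell (27.3%, against 16.3%). Aldh1a3, a retinaldehyde dehydrogenase of luminal progenitors, fell from 42.6, 55.1 and 32.5 normalised read counts to 7.09, 3.02 and 5.56, and Ly6a from 3671 ± 344 to 2020 ± 38.1 (SD, n = 3). Of 9 tested basal genes of the 20 listed, 3 rose (33.3%, against 15.7% of all genes tested) and 4 fell (44.4%, against 16.3%), and these include Krt14, Itgb4, Sparc and Vim, already counted in other lists. The luminal list gave between 1 and 2 rises and 2 to 5 falls with single libraries left out, with 1 rise and 2 falls without YEJG-FP replicate 3 or replicate 2, 1 rise without YEJG-FP replicate 1, YEJG replicate 2 or YEJG replicate 3, and 5 falls without YEJG replicate 1. Of 39 Hox genes, 1 was expressed enough to be tested, and it did not pass.

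The study that reported these lines deals with uridine phosphorylase, which splits uridine into uracil and ribose phosphate. Its gene Upp1 had 303, 317 and 305 normalised read counts in YEJG and 282, 311 and 324 in YEJG-FP, so the libraries of the lines overlapped (log2 fold change -0.01, standard error 0.08, adjusted p = 0.927). Upp2 was not expressed enough to be tested. The difference in Upp1 was lower than that of the YEJH fat-pad lines against YEJH by 0.36 on the log2 scale (difference of the differences -0.36, adjusted p = 0.012).

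Other genes of uridine and pyrimidine handling showed 5 rises (19.2%) and 3 falls (11.5%) among 26 tested of the 35 listed. These shares were near the 15.7% and 16.3% of all genes tested. Slc29a1, the equilibrative nucleoside transporter that carries uridine, rose 2.83-fold from 826, 750 and 656 normalised read counts to 2311, 2074 and 1941. Nt5e, the surface 5′-nucleotidase CD73, rose 2.36-fold from 576, 658 and 561 to 1569, 1372 and 1290. Entpd5, a nucleoside diphosphatase, fell from 468, 501 and 460 to 267, 233 and 256, and Nt5c, a cytosolic pyrimidine nucleotidase, from 2155, 2134 and 1920 to 1329, 1230 and 1259. There were 3 rises without YEJG-FP replicate 2, YEJG-FP replicate 1 or YEJG replicate 2, and 2 without YEJG-FP replicate 3. The falls numbered 2 without YEJG-FP replicate 2 and 5 without YEJG replicate 3.

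Xist, the RNA that coats the inactive X chromosome, fell 7.5-fold. It had 1916, 2394 and 2158 normalised read counts in YEJG and 357, 291 and 218 in YEJG-FP (log2 fold change -2.91, standard error 0.10, adjusted p = 1.84e-08). The YEJH fat-pad lines held 2519 to 3186 and the YEJG lung lines 1795 and 1813. Xist was not lowest in YEJG-FP, since the YEJH lung line YEJH-M2 held 164. Another, YEJH-M3, held 7601, the most of the series. Of 317 X-linked genes with a mean of at least 50 normalised read counts over the 6 libraries, 12.6% were higher and 20.2% lower, against 15.6% and 17.6% of all 10423 such genes, and their median log2 fold change was -0.0114. The other tested nuclear RNAs, Malat1, Kcnq1ot1 and Neat1, rose by 0.96, 0.63 and 0.53 on the log2 scale. Kcnq1ot1 lost its call in the fit of all 45 libraries (adjusted p = 0.194), and Neat1 lost its call without YEJG-FP replicate 1 (adjusted p = 0.061) or YEJG replicate 2 (0.0602).

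Genes listed as imprinted fell in 6 of 9 tested (66.7%, against 16.3% of all genes tested), of 30 listed, and rose in 2. Gab1, a docking protein of receptor tyrosine kinases that is imprinted in placenta, fell 7.31-fold from 1131, 1046 and 985 normalised read counts to 152, 135 and 146. Mest, expressed from the paternal allele, fell from 104 ± 2.62 to 36.5 ± 1.97 and Phlda2, expressed from the maternal allele, from 436 ± 36.9 to 162 ± 19.2 (SD, n = 3). Snrpn, of the Prader-Willi region, fell from 277 ± 45.9 to 111 ± 12.3. Of 9 tested mitochondrial transcripts, mt-Nd1 rose (adjusted p = 0.0127), and it lost its call without YEJG-FP replicate 1 (0.0825) or YEJG replicate 2 (0.0828). The number of these transcripts that rose was 2 without YEJG replicate 1 and 3 without YEJG replicate 3.

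Some differences were shared by stretches of neighbouring genes. Genes with a mean of at least 50 normalised read counts were put in annotation order, and stretches were sought in which the median of 25 neighbours exceeded 0.2 in size over at least 20 genes. This rule was set after the values per chromosome had been seen, and no test was made. It found 5 stretches with 352 genes, of which 291 had an adjusted p under 0.05 and 33 also reached 2-fold. Of all genes tested, 32% had an adjusted p under 0.05, and 4.05% were higher and 3.3% lower by at least 2-fold. The stretches were picked by the same log2 fold changes, so a high share past the threshold is built in.

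The longest lay at the start of chromosome 15, from Gm7666 to St3gal1, with 125 genes and a median log2 fold change of 0.56. In it 106 genes were higher (84.8%, against 15.6% of all 10423 genes with such a mean) and 4 lower. Angpt1, Cct5, which encodes a subunit of the TRiC chaperonin, and Myc lie in it. Myc rose from 1583, 1381 and 1531 normalised read counts to 1978, 1692 and 1865, a log2 fold change of 0.30 (adjusted p = 0.0129), and its call was lost without YEJG-FP replicate 3 (0.0645), YEJG-FP replicate 1 (0.152) or YEJG replicate 2 (0.154). The other 297 genes of the chromosome had a median of -0.0505. The median of the stretch was 0.32 in YEJG-M1 and 0.22 in YEJG-M2 against the same parental libraries, and 0.16 in the YEJH fat-pad lines against YEJH.

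Chromosome 11 held a pair of stretches in opposite directions. From Taco1 to Abca5, 22 of 29 genes were higher, with a median of 0.66, and this stretch holds Ddx5, an RNA helicase with 11411 ± 507 and 17065 ± 995 normalised read counts (SD, n = 3). From Cog1 to Mfsd11, 52 of 58 genes were lower (89.7%, against 17.6% of all such genes), with a median of -0.64. This stretch holds Itgb4 and Nt5c. Its median was -1.33 in YEJG-M1 and -1.19 in YEJG-M2 against the same parental libraries, and -0.0416 in the YEJH fat-pad lines against YEJH.

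On chromosome 4, from Tdrd7 to Gm49890, 65 of 92 genes were higher, with a median of 0.45, beside medians of -0.0711 in YEJG-M1 and -0.0929 in YEJG-M2 against the same parental libraries. The remaining stretch, on chromosome 13 from H2ac13 to H2bc3, is the large histone gene cluster. Of its 48 genes 42 encode histones, of which 31 were lower, with a median of -0.30, while 0 of the other 6 genes were lower. Replication-dependent histone mRNAs lack a poly(A) tail and the libraries were made from polyA RNA, and histone genes are near-identical copies, so their single values are uncertain.

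**Figure D4:**
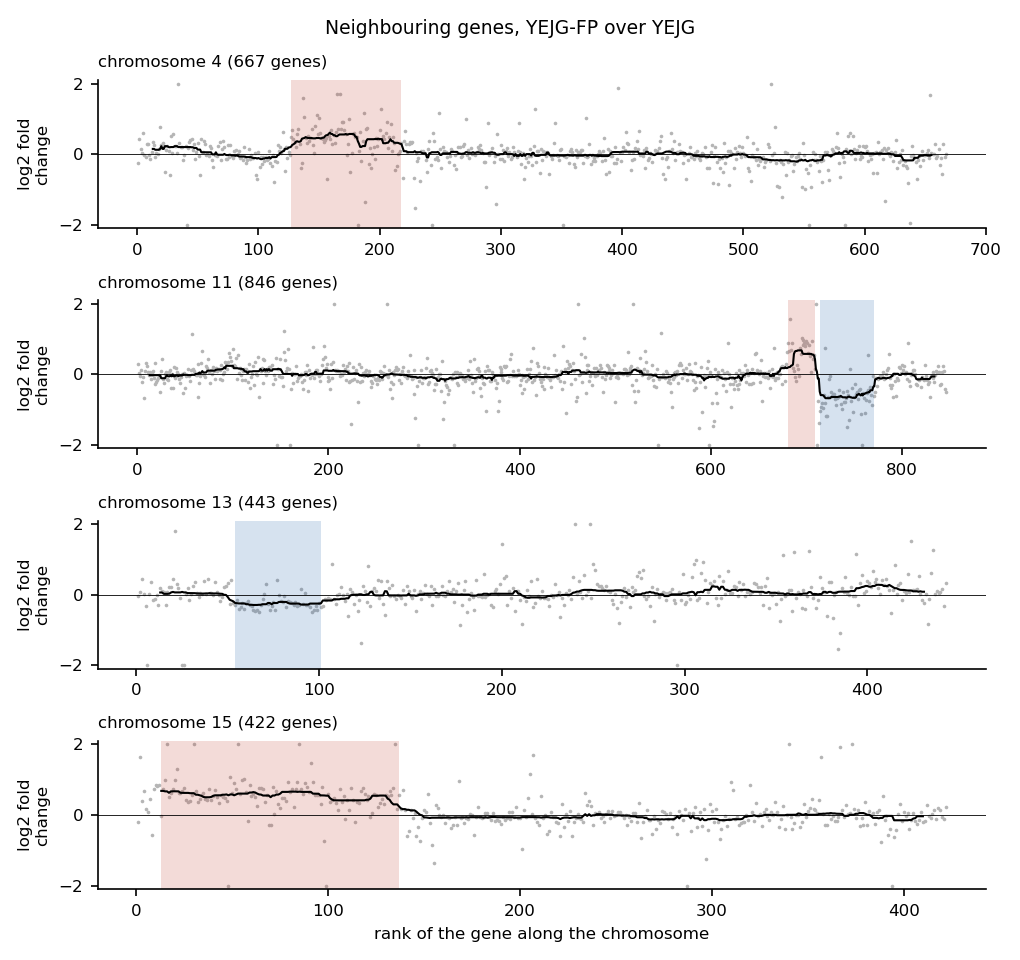
Log2 fold changes, YEJG-FP over YEJG, of genes in annotation order on chromosomes 4, 11, 13 and 15 (grey points, values beyond 2 drawn at 2), with the median of 25 neighbours as a black line. Shaded stretches are those found by the rule, red where higher and blue where lower, and the line stays near 0 outside them.

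The other parental line allowed a comparison with no shared library. The 5 fat-pad lines of YEJH were set against YEJH, and the difference between both comparisons was tested in 1 fit of 24 libraries. Of 13749 genes, 2386 (17.4%) differed between the comparisons. Of genes that rose at least 2-fold in YEJG-FP, 141 also rose at least 2-fold in the YEJH fat-pad lines, which is 27.6% of 511 and 68.4% of the 206 that rose in the YEJH lines and were tested in both. Of the falls 81 were shared, 19.5% of 416 and 54% of 150. Opposite directions were found for 11 and 12 genes. In the YEJH lines 2.41% of genes tested rose and 1.46% fell by at least 2-fold.

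Shared rises included Nqo1, Clec2f, Tmem37, Car12, Ccnb1ip1 and Adamts5, and shared falls Fzd3, Myh10, Arhgef4 and Krt6a. Fzd3 was at 325 normalised read counts in YEJH and at 19.6 to 42.5 in its fat-pad lines, beside 16.2 in YEJG-FP (difference of the differences -0.75, adjusted p = 0.083). Differences of Qng1, Eya4, Cldn7, Dok2, Xist and Col17a1 were larger in YEJG-FP, and for each the YEJH difference lay within 0.21 of 0 on the log2 scale and the difference of the differences passed the threshold. Zeb1 rose in both, by 3.21 and 0.98, and the difference passed (2.22, adjusted p = 6e-07).

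The levels of all 15 lines describe where YEJG and YEJG-FP lay relative to the other 13 lines. The genes counted here were chosen for their difference between YEJG-FP and YEJG, so an extreme level in either line is partly built in. Shares over all genes tested were not computed, so the shares below have no background to be compared with. Of the 511 genes higher in YEJG-FP, YEJG-FP alone lay above the other 13 lines for 65 (12.7%), YEJG alone lay below them for 263 (51.5%), both held for 36 and neither for 147. Of the 416 lower genes, YEJG-FP alone lay below the other 13 for 100 (24%) and YEJG alone above them for 137 (32.9%). Of the higher genes, Qng1 had YEJG-FP apart and Scd1 had YEJG apart, at 48.4 with the next lowest line YEJH at 341. Cldn7 was lowest in YEJG-FP, at 58.9 ± 3.1 (SD, n = 3), with the next lowest lines YEJG-M1 at 238 and YEJG-M2 at 272.

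**Figure D5:**
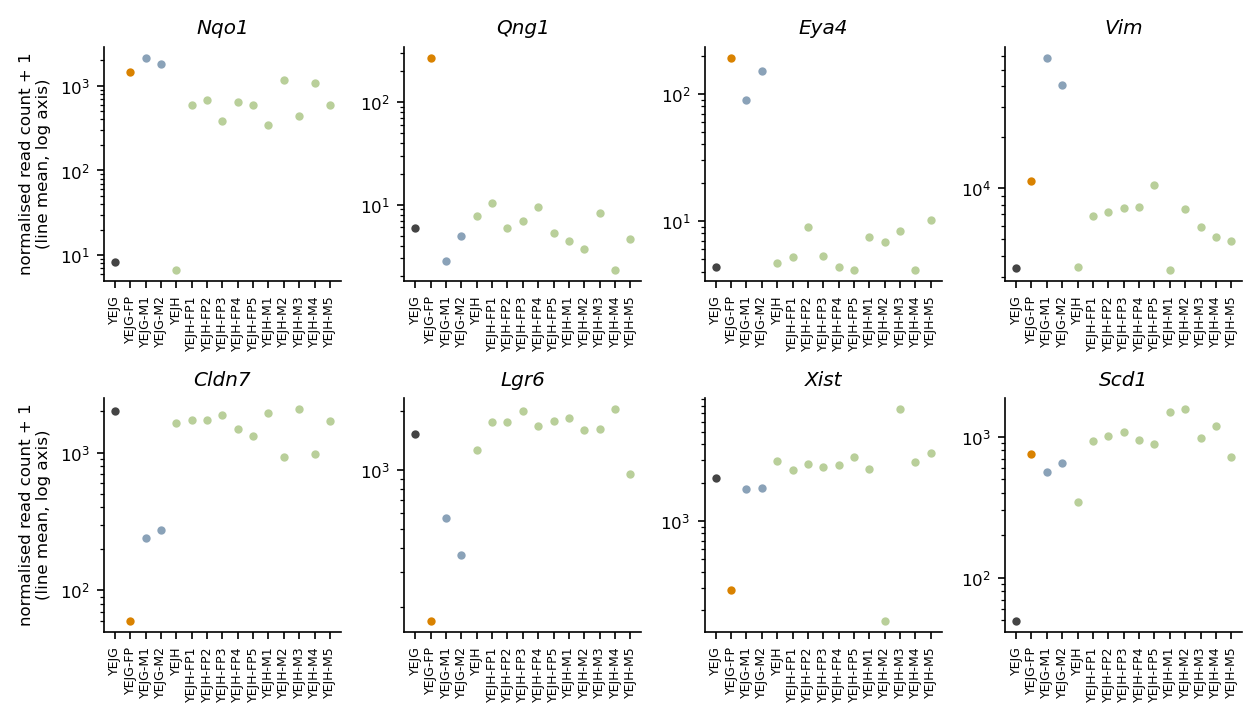
Mean normalised read count plus 1 on a log axis in each of the 15 lines for 8 genes, with a separate scale for each gene. YEJG is dark, YEJG-FP orange, the lung lines of YEJG blue and the lines of the YEJH family green. Qng1 is high in YEJG-FP alone, Scd1 is lowest in YEJG, and Nqo1 is low in the parental lines alone.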

How the data were processed

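RNA of the 15 PyMT+ cell lines was prepared with a TruSeq kit from polyA RNA and sequenced on a NextSeq500. The deposited table, made by the authors, holds unnormalised counts for each gene in 45 libraries. The submitters' processing notes name FastQC, HISAT2, SAMtools 1.2 and HTSeq, with no role or order, and name a human build, whereas the identifiers are those of mouse, so no coordinates were taken from the files, and those of promoters are RefSeq's. Of 54838 identifiers 50764 (92.6%) matched GENCODE M39. The 5 rows that name no gene, 33.0 to 35.6% of reads of the 6 libraries, were left out.

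Counts were scaled with TMM factors over all 45 libraries. Genes kept by filterByExpr were tested in edgeR 4.0.16 (R 4.3.3) with the quasi-likelihood test, library run as covariate and Benjamini-Hochberg adjustment over all genes tested, at a threshold of 0.05. Standard errors are the log2 fold change over the square root of F. The difference of the differences used 24 libraries and the same test. Lines at 0 reads were given a floor of 3 reads over 3 libraries, and intervals and floors cover counting error only. Figures used Python 3.11.15 and matplotlib 3.10.9. The fit was tested on simulated counts.

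Named genes were the 12 largest rises and 12 largest falls among protein-coding genes with an adjusted p under 0.05, no overlap between lines and a mean of at least 100 normalised read counts in the higher line, up to 4 members of each list with an adjusted p under 0.05, the 5 protein-coding genes past the threshold with the largest rise and the 5 with the largest fall in normalised read counts, and Upp1, Upp2, Fn1, Itga5 and Itgb1. A few genes that this rule names are not reported here, though counts include them. The members, lists and rules were chosen with earlier results of these data known. Alternatives used DESeq2 1.42.0, limma 3.58.1 with voom, other scalings, filters and covariates, and single libraries left out.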

Additional observations from a re-analysis of the deposited data

Results flagged for a closer look

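Of 22 genes with the largest rises and falls, 18 differed between the YEJG and the YEJH comparison by the test of the difference of the differences (YEJG-FP against YEJG, less the YEJH fat-pad lines against YEJH, edgeR's quasi-likelihood test). On the log2 scale it was 4.50 for Angpt1, 1.74 for Car12, 4.32 for Ccl2, 2.57 for Ccnb1ip1, 5.58 for Eya4, 5.82 for Qng1, 4.36 for Kcnj2 and 3.26 for Decr1. Among the falls it was -4.39 for Shox2, -1.72 for Arhgef4, -2.98 for Ppfibp2, -2.32 for Myh10, -4.46 for Dok2, -3.37 for Krt6a, -5.05 for Cldn7, -4.28 for Ngfr, -4.31 for Klk6 and -5.01 for Kcnf1. The genes were chosen for their size in YEJG-FP, which makes a larger difference there likely, and 4 of the 22 did not pass.

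In the 5 YEJH fat-pad lines, 1 line lay apart from the other 4 for 3 of the 22 genes, by the gap to the nearest line as a share of the range. These were Clec2f in YEJH-FP2 (0.711), Tmem37 in YEJH-FP1 (0.73) and Eya4 in YEJH-FP2 (0.754). Chance flags about 1 in 20 such groups, and 22 were examined.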

How the results depend on the processing

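The number of genes past the threshold, 4041, lay between 2424 and 5036 with single libraries left out, and the number past 2-fold, 927, between 862 and 1069. It was 2426 with run 1 only, 2342 with a replicate block in place of library run and 4580 with the replicate block and library run together. Replicate numbers were not used to pair the libraries, since after removal of the run not every pair correlated by over 0.1. That rule cannot decide whether the numbers mark a shared batch, which no label states. Same-numbered libraries correlated by 0.135 (number 1), 0.0288 (number 2) and 0.255 (number 3), beside highest correlations with another number of 0.134, 0.134 and -0.0429. With the block in place of run, 11 named genes lost their calls, with adjusted p from 0.051 (Smad6) to 0.273 (Fdps); the others were Top2a, Krt8, Neat1, Lrig3, Fas, Ahnak, Cd14, Hsp90aa1 and Hspb1. The other alternatives gave 3138 (DESeq2) to 4762 genes (no filter), and 3709 without the stretches of neighbouring genes, an alternative chosen after seeing the data. The number past 2-fold lay between 779 and 1234 in all of them. The number that differed between the comparisons, 2386, lay between 1934 and 2290 with single libraries of YEJG-FP or YEJG left out and between 2237 and 2444 with single YEJH fat-pad lines left out. No other scaling moved the median of all genes by over 0.1 (log2), although library totals alone made 57.1% of the genes past the threshold higher ones. Of 125 named genes 122 were past the threshold, and 105 of these stayed past it in every alternative that fitted them. Genes that an alternative left out, such as those of the stretches or not protein-coding, have no value there. Of the 2428 values, 72 fell short of the threshold and 0 changed sign. Upp1, which was not past it, changed sign with library totals alone (0.0273) and with run 1 only (0.0622), and lay between -0.0498 and 0.0622 with single libraries left out. Leaving out a second-run library leaves the other alone in its run, so the fit then rests on run 1. Genes with few reads per library are limited by depth.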
